A study of Mus musculus with 6 samples.

Results

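The mitochondrial genome of the mouse carries 37 genes, of which 13 encode proteins, 2 encode ribosomal RNAs (rRNAs) and 22 encode transfer RNAs (tRNAs). The genes described here were chosen as the rows of the count table whose symbol starts with mt-, and these were 37 of the 55335 gene identifiers in the table. All 37 matched the GENCODE M21 annotation of the mm10 mitochondrial chromosome with their version number. The RNA of 28 of them, 12 protein, 2 rRNA and 14 tRNA genes, is copied from the heavy strand of the genome and lies on the + strand of the reference. The RNA of the other 9, mt-Nd6 and 8 tRNA genes, is copied from the light strand and lies on the - strand.

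Counts were analysed in CD8+ T cells of the P14 line, whose transgenic T cell receptor recognises the GP33-41 peptide. Mice with implanted B16-GP33-41 melanoma, which carries that peptide, had received the cells on day 11 after the implantation. Donor P14 cells were sorted by flow cytometry from the tumors (3 libraries, labelled P14 TIL) and from the spleens of tumor-bearing mice (3 libraries, labelled P14 Sp), and tumor leukocytes alone were first recovered over Percoll. All 6 samples were labelled as C57BL/6 strain, P14 TCR transgenic and 10-week-old, and no untransferred or tumor-free group was analysed. The labels do not say whether the libraries came from separate or pooled mice, so the tests weigh a difference only against the variation among these libraries, part or all of which may be technical. The comparison asks how transcripts of the same T cell population differ between the tumor, which carries its antigen, and the spleen.

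Library totals ranged from 35095261 to 38263483 counts, and 19783 genes were tested. Of these, 34.8% were higher and 35.9% lower in tumor (adjusted p below 0.05 by edgeR), the background for the counts below. Markers of other cells differed between the tissues: 16 of 16 B and plasma cell genes, 20 of 20 macrophage and monocyte genes and 12 of 12 dendritic cell and MHC class II genes were lower in tumor. Their summed levels were 283 to 285, 156 to 192 and 178 to 186 CPM (counts scaled to a common library total) in tumor and 1570 to 1580, 702 to 706 and 1940 to 1980 CPM in spleen, and Cr2, Clec9a and Siglech were at 0 counts in all tumor libraries. Ighm alone held 269 to 272 CPM of the B cell sum in tumor, and Bst2 93.3 to 98.2 CPM of the dendritic cell sum. Of 10 erythroid and platelet genes, 5 were higher and 5 lower, and their sum was 247 to 275 CPM in tumor and 219 to 221 CPM in spleen. Higher and lower were 1 and 1 of 4 melanoma genes tested, 2 and 2 of 6 NK cell genes and 1 and 4 of 6 CD4 T cell genes. For neutrophils and mast cells 8 of 8 genes tested were lower, and for fibroblasts and endothelium 2 of 3. The 12 T cell identity genes summed to 5230 to 5480 CPM in tumor and 5820 to 5900 CPM in spleen, with 3 higher and 4 lower, neither share above the background. Of 22 heat shock and dissociation genes, 17 were higher and 3 lower in tumor, and the nuclear RNAs Malat1 and Neat1 were lower (log2 fold changes of -1.55 and -1.40). The part of these shifts in the differences of the mitochondrial genes was not tested. The description codes end alike within each tissue and differently between the tissues, and should that mark a batch, it cannot be told apart from tissue.

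Mitochondrial DNA is copied into RNA by its own polymerase as long precursors that span many genes. In most places a tRNA lies between neighbouring genes, and cutting the tRNA out by RNase P and the ELAC2 nuclease frees the mRNAs and rRNAs on either side. The mRNAs encode core subunits of complexes I, III and IV of the respiratory chain and of the ATP synthase, whose other subunits come from the nucleus. The rRNAs and tRNAs serve the mitochondrial ribosome, which makes only these proteins. CD8+ T cells draw on this machinery when they divide and when they persist as memory cells, and impaired mitochondria have been described in T cells within tumors.

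Because the genome is so compact, neighbouring genes share bases, and a read of 50 bases can touch more than one gene. The sites shown here are those where such sharing bears on the values given later. They are written 5′ to 3′ from the GENCODE M21 transcripts (mm10), with the bases shared with the neighbouring gene in capitals. The end of mt-Co1 (chrM:6813-6872, + strand) shares its last 3 bases, the stop codon TAA, with mt-Ts1 (chrM:6870-6938, - strand), a tRNA for serine. The tRNA gene is also shown as it reads on the mt-Co1 strand, where it continues directly from the mt-Co1 stop codon. The ends of mt-Nd5 (chrM:13506-13565, + strand) and mt-Nd6 (chrM:13552-13611, - strand) share 14 bases on opposite strands. The end of mt-Atp8 (chrM:7910-7969, + strand) shares 43 bases with the start of mt-Atp6 on the same strand.
mt-Co1 last 60 bases: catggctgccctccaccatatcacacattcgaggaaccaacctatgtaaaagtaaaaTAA
mt-Ts1: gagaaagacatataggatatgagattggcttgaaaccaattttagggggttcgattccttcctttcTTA
mt-Ts1 on the mt-Co1 strand: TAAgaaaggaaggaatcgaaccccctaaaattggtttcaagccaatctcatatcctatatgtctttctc
mt-Nd5 last 60 bases: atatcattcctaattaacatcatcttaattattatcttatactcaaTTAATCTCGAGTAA
mt-Nd6 last 60 bases: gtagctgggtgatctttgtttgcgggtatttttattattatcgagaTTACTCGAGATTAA
mt-Atp8 last 60 bases: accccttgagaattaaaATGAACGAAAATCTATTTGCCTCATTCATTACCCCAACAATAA

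P14 cells from tumor held a smaller share of their RNA counts in the mitochondrial genome than P14 cells from spleen. The 37 genes took 0.313%, 0.458% and 0.466% of all counts in tumor replicates 1, 2 and 3, and 1.11%, 1.10% and 1.19% in spleen replicates 1, 2 and 3. Every tumor library lay below every spleen library, and the tumor libraries spread more widely. The means were 0.412% ± 0.0858 in tumor and 1.14% ± 0.0467 in spleen (SD, n = 3 each), a 2.75-fold difference (two-sided exact permutation p = 0.1, the smallest that 3 against 3 allow). In such bulk RNA, fewer mitochondrial genomes per cell, less RNA per genome and another mix of cells cannot be told apart.

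By summed share of counts, the rRNA genes showed the smallest difference of the 3 classes. Protein genes took 0.331% ± 0.0601 of counts in tumor and 0.984% ± 0.0409 in spleen, a 2.97-fold difference. For the rRNA genes the shares were 0.0765% ± 0.0255 and 0.137% ± 0.00653, which is 1.79-fold. For the tRNA genes they were 0.00464% ± 0.00288 and 0.0130% ± 0.000784, which is 2.81-fold. The tRNA sum is mostly 1 gene, mt-Ts1, with 78.3% of tRNA counts in tumor and 87.4% in spleen. Per gene the order of these 2 classes turned: the median log2 fold change was -0.52 for the tested tRNA genes and -0.59 for the rRNA genes. By annotated strand, the difference was 2.75-fold for the 28 heavy-strand genes and 2.97-fold for the 9 light-strand genes. The sources do not say whether counting used strand, so these sums may hold RNA of the opposite strand. In each class and on each strand all tumor libraries lay below all spleen libraries (exact permutation p = 0.1 for each, n = 3 per tissue).

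**Figure D1:**
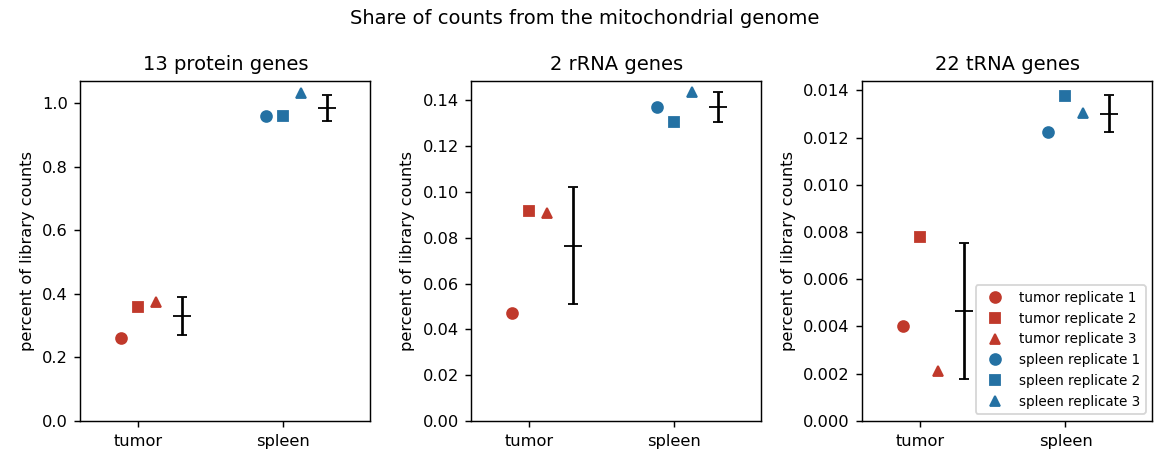
Percent of library counts (vertical axes, each from 0) held by the 13 protein, 2 rRNA and 22 tRNA genes of the mitochondrial genome, with 1 point per library and the mean ± SD of each tissue as a bar (n = 3). Tumor libraries lie below spleen libraries in each panel, and tumor replicates 1 and 3 are the lowest of the rRNA and tRNA panels, respectively.

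All 13 mRNAs were lower in tumor (adjusted p below 0.05, edgeR's quasi-likelihood test with Benjamini-Hochberg adjustment), where 35.9% of all genes tested were lower and 34.8% higher. Their log2 fold changes ran from -1.76 for mt-Co1 to -0.79 for mt-Nd3, with a median of -1.48, against a median of -0.02 over all genes tested. For all 13, the 3 tumor libraries lay below the 3 spleen libraries in CPM. That was so for 39.4% of all genes tested, while the reverse held for 35.1%.

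Complex I, the NADH dehydrogenase that feeds electrons into the chain, has 7 mitochondrial subunits, and all 7 mRNAs fell. mt-Nd4 (chrM:10167-11544, + strand), a core subunit of the proton-pumping membrane arm, was at 72.2, 110 and 144 CPM in tumor replicates 1 to 3 and at 357, 371 and 373 CPM in spleen replicates 1 to 3. The highest tumor library lay well below the lowest spleen library, and the mRNA was 3.32-fold lower in tumor (log2 fold change -1.73, SE 0.17, adjusted p = 4.0e-06). mt-Nd1 fell by 1.29 on the log2 scale, mt-Nd2 by 1.48, mt-Nd4l by 1.39 and mt-Nd5 by 1.31, all with adjusted p of 7.3e-05 or less.

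mt-Nd6 is the one mRNA copied from the light strand. It was at 14.8, 29.0 and 34.1 CPM in tumor and 73.5, 83.2 and 74.0 CPM in spleen, with no overlap. Its log2 fold change of -1.54 (SE 0.21, adjusted p = 4.8e-05) lay within the range of the heavy-strand mRNAs. Whether counting used strand is not given, so the mt-Nd6 counts may hold RNA of the opposite strand. As a share of the counts of the 12 heavy-strand mRNAs, mt-Nd6 made up 0.568%, 0.816% and 0.923% in tumor and 0.770%, 0.874% and 0.723% in spleen. These ranges overlapped, and the log2 difference of -0.06 did not exceed the spread between libraries (exact permutation p = 0.9, n = 3 per tissue).

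mt-Nd3 (chrM:9459-9806, + strand), another membrane-arm subunit, had the smallest change. Its level was 9.65, 23.1 and 23.8 CPM in tumor and 33.2, 33.5 and 32.7 CPM in spleen. Tumor replicate 1 was far below the other tumor libraries, which themselves lay below all spleen libraries. The log2 fold change was -0.79 (SE 0.24, adjusted p = 0.011). It was -0.47 without tumor replicate 1, and the call was lost with DESeq2 (adjusted p = 0.057) and with the spleen libraries summed into 1 sample (adjusted p = 0.093).

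Complex III passes electrons from ubiquinol to cytochrome c, and its only mitochondrial subunit is cytochrome b. mt-Cytb (chrM:14145-15288, + strand) was at 213, 256 and 346 CPM in tumor and 882, 900 and 967 CPM in spleen. All tumor values lay under all spleen values, and the difference was 3.32-fold (log2 fold change -1.73, SE 0.13, adjusted p = 3.8e-07). Of the 13 mRNAs it had the smallest p.

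Complex IV, cytochrome c oxidase, has 3 mitochondrial subunits that form its catalytic core, and all 3 mRNAs fell. mt-Co3 (chrM:8607-9390, + strand) was at 612, 860 and 1089 CPM in tumor and 2360, 2271 and 2531 CPM in spleen. Its log2 fold change was -1.46 (SE 0.15, adjusted p = 4.6e-06), and that of mt-Co2 was -1.37 (SE 0.13, adjusted p = 3.1e-06). mt-Co1 (chrM:5328-6872, + strand) was at 802, 952 and 354 CPM in tumor and 2346, 2263 and 2711 CPM in spleen. Here tumor replicate 3 was the lowest tumor library, and no tumor library reached the spleen range (log2 fold change -1.76, SE 0.27, adjusted p = 1.2e-04). Without tumor replicate 3 the log2 fold change of mt-Co1 was -1.43.

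The ATP synthase, which turns the proton gradient into ATP, has 2 mitochondrial subunits encoded by overlapping genes. mt-Atp6, part of the proton channel, was at 362, 574 and 760 CPM in tumor and 1580, 1670 and 1581 CPM in spleen (log2 fold change -1.49, SE 0.19, adjusted p = 2.5e-05). mt-Atp8, a subunit of the stalk region, was at 37.1, 83.2 and 88.2 CPM in tumor and 213, 229 and 213 CPM in spleen (log2 fold change -1.63, SE 0.23, adjusted p = 6.3e-05). For both, tumor replicate 1 was the lowest library and the tissues did not overlap.

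**Figure D2:**
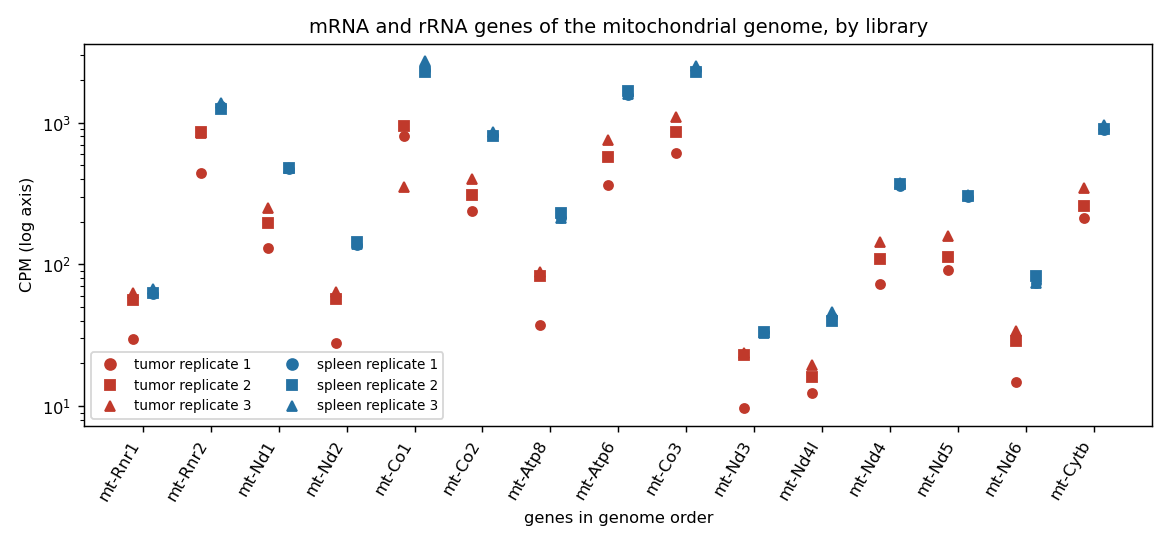
CPM on a log axis for the 2 rRNA and 13 protein genes in genome order, with 1 symbol per library (red for tumor, blue for spleen; shape for the replicate). Tumor symbols lie below spleen symbols for all genes except mt-Rnr1, and the triangle of tumor replicate 3 is the lowest red symbol for mt-Co1 only.

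Taken by complex, the shares of library counts differed 2.71-fold for complex I, 3.37-fold for complex III, 3.02-fold for complex IV and 2.88-fold for the ATP synthase. Within the mitochondrial mRNA pool, the summed mRNAs of each complex overlapped between the tissues. Complex I mRNAs amounted to 18.9% ± 3.58 of the other mitochondrial mRNAs in tumor and 17.2% ± 0.728 in spleen, and for the ATP synthase the values were 23.3% ± 5.79 and 22.9% ± 1.80. Complex IV gave 138% ± 36.9 and 135% ± 9.50, and complex III gave 8.92% ± 1.25 and 10.3% ± 0.139. For all 4 a difference was not detectable beyond the spread between libraries (exact permutation p of 0.2 to 1, n = 3 per tissue), and tumor libraries spread more than spleen libraries. Complex III alone separated the tissues when log2 values were averaged per gene (log2 difference -0.26, exact permutation p = 0.1). Of the single mRNAs, 3 made up a larger share of the pool in all tumor libraries than in any spleen library (exact permutation p = 0.1 for each). These were mt-Co2 (9.49% and 8.43% on average), mt-Nd3 (0.550% and 0.337%) and mt-Nd4l (0.481% and 0.434%).

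Per kilobase of gene, mRNA levels differed widely between genes. In spleen the order ran from mt-Co3 at 3045 CPM per kb, mt-Atp6 at 2365 and mt-Co1 at 1579 down to mt-Nd3 at 95.2, a 32.0-fold span. In tumor it ran from mt-Co3 at 1089 CPM per kb and mt-Atp6 at 830 down to mt-Nd2 at 47.7, a 22.9-fold span. Neighbours in the tumor order often lay within their SD: mt-Co2 was at 462 ± 119 and mt-Co1 at 455 ± 201 CPM per kb, and mt-Nd3, mt-Nd4l, mt-Nd6 and mt-Nd2 lay between 47.7 and 54.2 CPM per kb. In spleen, mt-Nd6 at 148 ± 10.5, mt-Nd4l at 144 ± 10.1 and mt-Nd2 at 135 ± 3.30 CPM per kb also lay close together. The complex IV and ATP synthase mRNAs stood above those of complex I in both tissues.

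Across the 13 mRNAs, Spearman's rho of the log2 fold change was -0.24 with length, -0.04 with GC content, -0.36 with the spleen level per kb and -0.17 with the order along the genome. These are descriptions over 13 genes measured in the same libraries, 12 of them on the same strand. The 3 genes that end in a single T and get their stop codon only by polyadenylation (mt-Co3, mt-Nd4 and mt-Cytb) had a median log2 fold change of -1.73, and the 10 with a full stop codon had -1.44.

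In counts, both ribosomal RNAs of the mitochondrion differed less between the tissues than the median mRNA (log2 fold change -1.48). How evenly these libraries captured rRNA was not tested, so the values describe counts and need not give rRNA amounts. mt-Rnr2 (chrM:1094-2675, + strand), the 16S rRNA of the large ribosomal subunit, was at 440, 860 and 844 CPM in tumor and 1308, 1244 and 1369 CPM in spleen. The tissues did not overlap, and it fell by 0.85 on the log2 scale (SE 0.19, adjusted p = 0.0017). mt-Rnr1 (chrM:70-1024, + strand), the 12S rRNA of the small subunit, was at 29.9, 56.2 and 63.0 CPM in tumor and 62.1, 62.3 and 67.1 CPM in spleen. Tumor replicate 3 lay inside the spleen range, and the log2 fold change of -0.34 (SE 0.19) did not pass (adjusted p = 0.14). It was called lower without tumor replicate 3 (-0.52, adjusted p = 0.015) and with no filter on low counts (-0.32, adjusted p = 8.3e-05), and it was at -0.07 without tumor replicate 1.

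Set against the mRNAs of the same library, both rRNAs lay higher in tumor. The 16S counts were 16.8%, 24.0% and 22.6% of the summed mRNA counts in tumor and 13.6%, 12.95% and 13.3% in spleen. The 12S counts were 1.14%, 1.57% and 1.69% in tumor and 0.646%, 0.649% and 0.651% in spleen. All tumor values lay above all spleen values, 1.57-fold for 16S and 2.23-fold for 12S (exact permutation p = 0.1 for each, n = 3 per tissue). The rRNA counts themselves changed unequally: 16S over 12S was 1446% ± 97.1 in tumor and 2047% ± 55.1 in spleen, without overlap (exact permutation p = 0.1).

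Of the 22 tRNA genes, 11 had too few counts to be tested, and these held between 0 and 14 counts per library. Over 3 libraries those 11 summed to 144 counts in tumor and 151 in spleen, and 10 of them are heavy-strand genes. mt-Tf, the tRNA for phenylalanine at the start of the heavy-strand precursor, had 1 count in each tumor library and 0 in spleen, where 0 allows up to 3 counts per library. tRNA genes are 59 to 75 bases long (mt-Ts1 is 69), so that few positions fit a read of 50 bases inside them. Whether length lowers their counts was not tested. Values of tRNA genes other than mt-Ts1 rest on small counts.

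Among the 11 tested tRNA genes, 5 fell, 6 did not pass in either direction and none was called higher by edgeR, DESeq2 or limma-voom, where 35.9% of all genes tested were lower. A count of 5 of 11 is near that background. Over all 26 mitochondrial genes tested, 19 were lower and 0 higher (0 at an unadjusted p below 0.05). That is above the 35.9% lower, and below the 34.8% higher, of all genes tested. The tRNAs that fell were mt-Te for glutamate (-1.70 on the log2 scale, SE 0.31, adjusted p = 4.1e-04), mt-Ts1 for serine (-1.61, SE 0.35, adjusted p = 0.0016), mt-Ti for isoleucine (-1.40, SE 0.29, adjusted p = 0.0011), mt-Tq for glutamine (-1.10, SE 0.37, adjusted p = 0.021) and mt-Tw for tryptophan (-0.89, SE 0.30, adjusted p = 0.020). The call of mt-Tq was lost with DESeq2 (adjusted p = 0.0509), without tumor replicate 3 (0.0664), without spleen replicate 1 (0.0704) or 2 (0.104), and with the spleen libraries summed (0.0623). That of mt-Tw was lost without tumor replicate 3 (adjusted p = 0.066), without spleen replicate 1 (0.0566) or 3 (0.0562), and with the spleen libraries summed (0.104).

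mt-Tl1 (chrM:2676-2750, + strand), the tRNA for leucine, lies directly downstream of the 16S rRNA gene. It had 46, 80 and 90 counts in tumor and 59, 54 and 66 in spleen, and these ranges overlapped. Its log2 fold change was 0.27 (SE 0.23, adjusted p = 0.31), and without tumor replicate 1 it was called higher (0.51, adjusted p = 0.027).

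The light-strand tRNAs between mt-Nd2 and mt-Co1 split the tumor libraries. mt-Tn, for asparagine, had 8, 63 and 7 counts in tumor and 27, 26 and 27 in spleen. mt-Tc, for cysteine, had 24, 71 and 9 counts in tumor and 34, 30 and 31 in spleen. mt-Ta, for alanine, and mt-Ty, for tyrosine, had the same order in tumor. Tumor replicate 2 was the highest and tumor replicate 3 the lowest of all 6 libraries for each of these 4 genes. None of the 4 passed the test with all libraries (log2 fold changes of -0.52 to 0.30, SE 0.46 to 0.68). Without tumor replicate 2, mt-Ta, mt-Tn and the heavy-strand tRNA for methionine, mt-Tm, were called lower (-2.23, -1.78 and -1.15), and mt-Tc was at -0.90 (adjusted p = 0.061). Without tumor replicate 3, mt-Ty was called higher (0.74, adjusted p = 0.045).

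**Figure D3:**
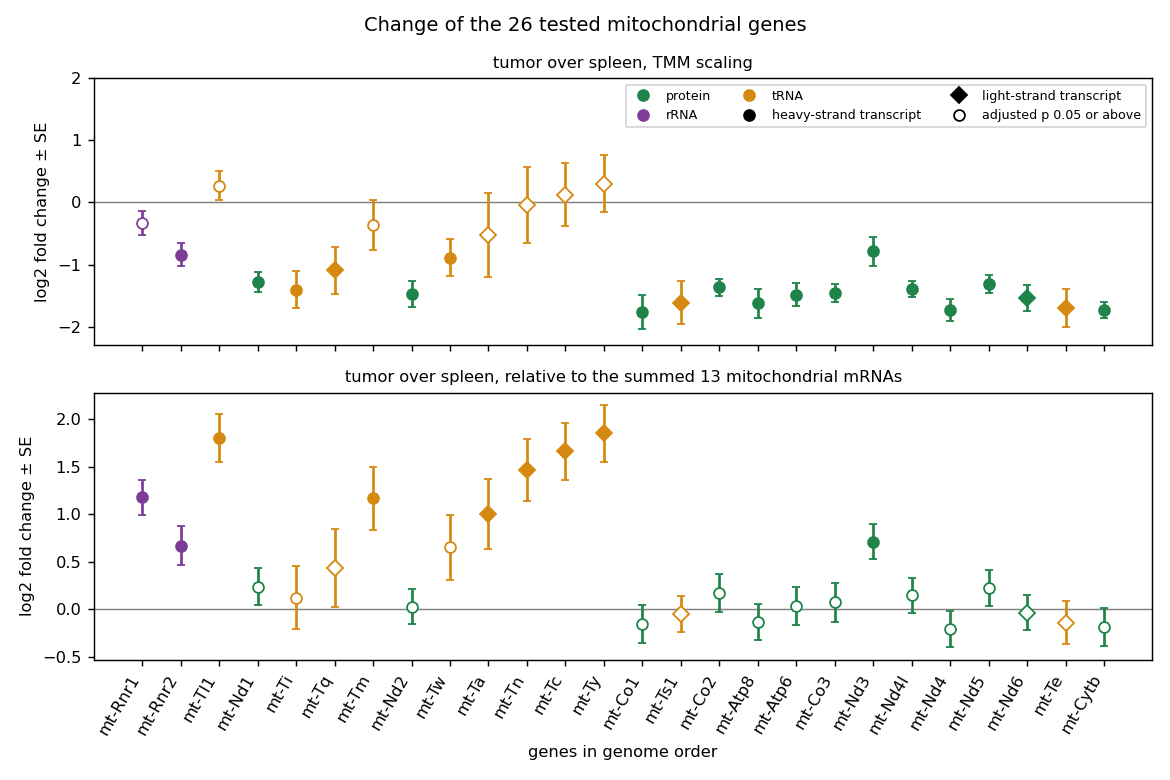
log2 fold change of tumor over spleen ± SE for the 26 tested mitochondrial genes in genome order, with library totals scaled by TMM (upper panel) and relative to the summed 13 mitochondrial mRNAs of each library (lower panel). Filled symbols passed an adjusted p of 0.05: 19 genes lie below 0 in the upper panel and 9 above 0 in the lower.

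To ask which members moved with the mRNAs, counts were also fitted with the summed counts of the 13 mRNAs as the library size. Because the 13 mRNAs make up this reference, their own changes lie around 0 by construction. The fit can thus set rRNA and tRNA genes against the mRNAs, but cannot show that the mRNAs moved together. On that scale the median of all genes tested was 1.55, with 86% of genes higher and 5.2% lower, so that adjustment removes few calls. Of the 26 members tested, 9 were higher, 0 were lower (0 at an unadjusted p below 0.05) and 17 did not pass. The 9 were both rRNAs (mt-Rnr1 1.18, mt-Rnr2 0.67), mt-Nd3 (0.71) and the tRNA genes mt-Tl1 (1.80), mt-Tm (1.17), mt-Ta (1.003), mt-Tn (1.46), mt-Tc (1.66) and mt-Ty (1.85). The calls of mt-Rnr1, mt-Tl1 and mt-Ty held whichever library was left out and with all 37 genes or the 7 complex I mRNAs as the reference. With the complex I mRNAs as reference, those of mt-Nd3 (adjusted p = 0.0545) and mt-Rnr2 (adjusted p = 0.091) were lost.

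The number of such calls rested on single tumor libraries. Without tumor replicate 1, 14 members were higher and 2 lower (mt-Co1 -0.46, mt-Cytb -0.18) relative to the mRNAs. Without tumor replicate 2, 5 were higher: mt-Ta (-0.61) and mt-Tn (-0.18) changed direction, and mt-Tc (0.75, adjusted p = 0.090) and mt-Tm (0.46, adjusted p = 0.30) no longer passed. The call of mt-Ta was also lost without spleen replicate 2 (adjusted p = 0.099).

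mt-Ts1 held 78.3% of all tRNA counts in tumor and 87.4% in spleen. It had 1183, 2367 and 530 counts in tumor and 3891, 4513 and 4031 in spleen, without overlap. Its counts were 4.04%, 6.50% and 4.14% of those of mt-Co1 in tumor and 4.54%, 5.30% and 4.24% in spleen, so the ratio overlapped between the tissues. As the sequences above show, mt-Ts1 lies back to back with the end of mt-Co1, and the mature mt-Co1 mRNA of mammals is known to carry the antisense of this tRNA at its end. In windows of 50 bases, 20 positions touch mt-Ts1 and no other gene on either strand, and 118 touch it and no other gene on its own strand. The sources used here do not say whether counting used strand, so RNA of mt-Ts1 and RNA of the opposite strand cannot be told apart. Without tumor replicates 1, 2 and 3 in turn, the log2 fold change of mt-Ts1 was -1.53, -2.23 and -1.22.

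mt-Te (chrM:14071-14139, - strand) lies between mt-Nd6 and mt-Cytb, and its counts too may hold RNA of the opposite strand. Its counts were 73, 126 and 32 in tumor and 230, 303 and 219 in spleen. Relative to its light-strand neighbour mt-Nd6 it was at 13.5%, 11.4% and 2.59% in tumor and 8.56%, 9.67% and 8.43% in spleen. Relative to mt-Co1 it was at 0.250%, 0.346% and 0.250% in tumor and 0.268%, 0.356% and 0.230% in spleen. The first ratio set tumor replicate 3 apart from all other libraries, and the second did not.

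By annotated strand, the tRNA counts of the tissues differed in make-up, though RNA of the opposite strand may be among them. Light-strand tRNA counts were 1138%, 1230% and 372% of heavy-strand tRNA counts in tumor and 2058%, 2063% and 2373% in spleen, with all tumor libraries below all spleen libraries (log2 difference -1.42, exact permutation p = 0.1, n = 3 per tissue). Without tumor replicate 3 the log2 difference was -0.87, and as a mean of log2 values per gene it was -0.53, with overlap (exact permutation p = 0.2). Most of the light-strand counts were those of mt-Ts1, and without it the values were 136%, 173% and 47.2% in tumor and 178%, 182% and 194% in spleen. Summed over all 22 genes, tRNA over mRNA was 1.53%, 2.17% and 0.570% in tumor and 1.27%, 1.44% and 1.26% in spleen. The tumor libraries lay on both sides of the spleen range (exact permutation p = 1). As a mean of log2 values per gene, which gives each tRNA the same weight, tumor was higher (log2 difference 1.12, exact permutation p = 0.1).

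Tumor replicate 3 also differed from the other tumor libraries in mt-Co1. Among the tumor libraries it was the highest for 12 of the 13 mRNAs and the lowest for mt-Co1, while tumor replicate 1 was the lowest for those 12. mt-Co1 over mt-Co3 was 131%, 111% and 32.5% in tumor replicates 1, 2 and 3, against 99.4%, 99.6% and 107% in spleen. mt-Co2 over mt-Co3 was 38.9%, 36.2% and 36.7% in tumor and 34.8%, 35.7% and 33.8% in spleen. For mt-Co1 this library lay below all 5 others, and for mt-Co2 it lay among the other tumor libraries. It was also the lowest tumor library for 7 of the 8 light-strand tRNA genes, while tumor replicate 2 was the highest for 7.

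**Figure D4:**
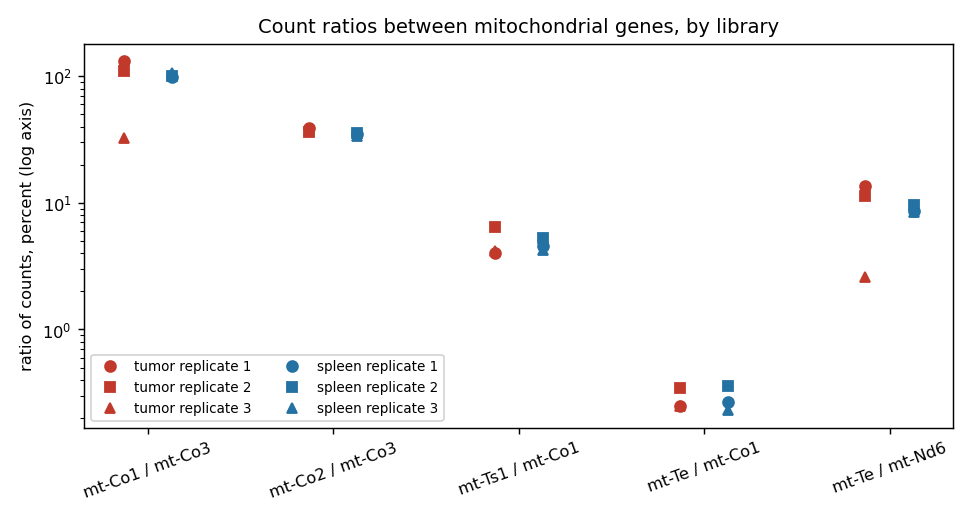
Ratios of counts between mitochondrial genes in percent on a log axis, with 1 symbol per library (red for tumor, blue for spleen). Tumor replicate 3 (red triangle) stands apart for mt-Co1 over mt-Co3 (32.5%) and mt-Te over mt-Nd6 (2.59%), but not for mt-Co2 over mt-Co3, mt-Ts1 over mt-Co1 or mt-Te over mt-Co1.

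The spread between libraries differed by tissue for all mRNAs. The SD of the 13 mRNAs was 22.5% to 44.3% of the mean in tumor (median 33.1%) and 1.16% to 9.77% in spleen (median 3.20%), and mt-Co1 had the widest spread in both.

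Part of the mitochondrial genome is also present as nuclear copies, and 10 of the 37 genes share runs of 50 bases with an annotated nuclear gene model. A block of 7 such copies lies on chromosome 1 near position 24611535 of mm10. Gm28437, the copy of mt-Co3, had counts within 2 of those of mt-Co3 in every library, and 5 of the 7 copies matched their mitochondrial gene within 39 counts in every library. Reads that match both places were thus counted at both, and counts of these mitochondrial genes were not lowered by their copies. The 7 copies were lower in tumor in the same test (log2 fold changes of -1.91 to -0.80), and they took 0.168% to 0.665% of counts. With the copies left out of the fit, the same number of members was lower (19). That setting removes only the rows of the copies and keeps the counts of the members, so it is no separate check.

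The nuclear genome encodes the remaining subunits of the same complexes, and these did not fall with the mitochondrial ones. Of 77 nuclear subunit rows tested (the symbol Atp5o names 2 of them), 59 were higher in tumor, 2 were lower and 16 did not pass, with a median log2 fold change of 0.38 and a range of -0.22 to 0.95. The backgrounds were 34.8% higher and 35.9% lower over all genes. All 77 lay above the highest mitochondrial mRNA in log2 fold change. The 2 that fell, Ndufb10 (-0.22) and Ndufa1 (-0.20), are accessory subunits of complex I. Neither call held without tumor replicate 2, without spleen replicate 1, with the spleen libraries summed or against a null of a 1.2-fold change, and 1 complex I gene was called lower without tumor replicate 1, without spleen replicate 3 or with no filter on low counts.

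By complex, 27 of 37 nuclear genes rose in complex I, 4 of 4 in complex II, which has no mitochondrial subunit, 7 of 9 in complex III, 9 of 11 in complex IV and 12 of 16 in the ATP synthase. Against a null of a 1.2-fold change these counts were 17, 2, 7, 5 and 11, where 5430 of all 19783 genes tested were higher. Ndufab1, the acyl carrier protein of complex I, had mean levels of 54.1 ± 5.90 in tumor and 28.6 ± 1.84 in spleen (CPM, SD over 3 libraries each; log2 fold change 0.95, adjusted p = 1.2e-06). Cyc1, cytochrome c1 of complex III, was at 208 ± 9.98 and 124 ± 2.54 CPM (0.77, adjusted p = 4.6e-07). Cox7c of complex IV was at 68.5 ± 7.59 and 43.3 ± 0.975 CPM (0.69, adjusted p = 8.3e-06). Atp5b, the catalytic beta subunit of the ATP synthase, was at 1561 ± 0.632 and 847 ± 2.15 CPM (0.91, adjusted p = 1.9e-08).

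The ratio of mitochondrial to nuclear subunit counts was lower in tumor in each complex with both kinds. In complex I it was 14.6%, 21.9% and 27.1% in tumor and 67.5%, 71.6% and 68.7% in spleen, 3.37-fold lower in tumor. The ratio was 4.89-fold lower in complex III, 3.68-fold lower in complex IV and 4.47-fold lower in the ATP synthase. All tumor libraries lay below all spleen libraries in each of the 4 complexes (exact permutation p = 0.1 for each, n = 3 per tissue).

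**Figure D5:**
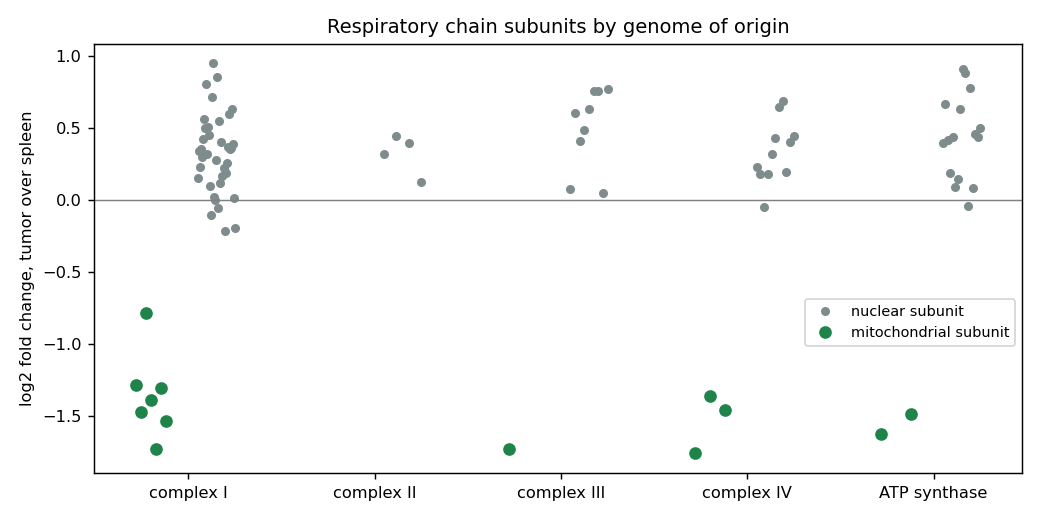
log2 fold change of tumor over spleen (vertical axis) for each respiratory chain and ATP synthase subunit gene, grouped by complex, with mitochondrial genes in green and nuclear genes in grey (sideways scatter for visibility only). The 13 green points lie between -1.76 and -0.79 and the 77 grey points between -0.22 and 0.95.

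The nuclear genes that copy, cut and stabilise mitochondrial RNA moved in both directions, to be read against the 34.8% higher and 35.9% lower of all genes tested. Of 9 transcription genes, 3 fell and 6 did not pass, a share near that background (6 fell without tumor replicate 3, and 5 with upper-quartile scaling or no filter). Those that fell included the termination factor genes Mterf1a (5.08 ± 0.743 CPM in tumor, 10.2 ± 0.537 in spleen, log2 fold change -0.98, adjusted p = 1.5e-05) and Mterf1b (-0.83, adjusted p = 3.2e-04), a pair of near-identical copies between which reads may be shared. Of 7 RNA processing genes, 3 rose and 2 fell. Hsd17b10, a subunit of mitochondrial RNase P (0.65), and Elac2, which cuts tRNA 3′ ends (0.61), were among those that rose. Ptcd1 (-0.25, adjusted p = 0.0051 by edgeR) and Fastkd5, needed for cuts where no tRNA lies (-0.24, adjusted p = 0.028), fell. Only 1 fell without tumor replicate 1, without spleen replicate 1, 2 or 3, or with no filter, and 0 against a 1.2-fold null. Of 15 RNA stability and decay genes, 10 rose and 2 fell. Lrpprc, whose protein binds and stabilises mitochondrial mRNAs, rose from 63.7 ± 2.70 CPM in spleen to 101 ± 3.56 CPM in tumor (0.70, adjusted p = 7.8e-07). Tbrg4, which also encodes an RNA-binding protein of this kind, rose (0.91), while Angel2 (-0.50) and Fastk (-0.18, adjusted p = 0.037 by edgeR) fell. Of these 15 genes, only 1 fell without tumor replicate 2 or 3, without spleen replicate 1, 2 or 3, or against a 1.2-fold null.

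Of 13 genes for copying and packing mitochondrial DNA, 8 rose and 1 fell, where 34.8% of all genes tested were higher and 35.9% lower. Top1mt, the mitochondrial topoisomerase, had mean levels of 18.1 ± 0.485 in tumor and 5.08 ± 0.475 in spleen (CPM, 3.63-fold, adjusted p = 1.7e-08). Atad3a, an inner membrane ATPase associated with the protein-DNA bodies of the mitochondrial genome, was at 122 ± 8.04 and 43.5 ± 2.02 CPM (2.87-fold, adjusted p = 8.3e-09). Polg, the catalytic subunit of the mitochondrial DNA polymerase, fell (-0.28, adjusted p = 0.0065). Of 22 genes for tRNA and rRNA modification, 3 rose, 4 fell and 15 did not pass, both shares below that background. Here 6 rose without tumor replicate 1 and 5 with no filter. The number that fell was 2 without spleen replicate 2, with no filter, with the spleen libraries summed or against a 1.2-fold null, and 7 with upper-quartile scaling or library totals alone. Pus1, a pseudouridine synthase (0.73), and Mrm3, a 16S rRNA methyltransferase (0.57), were among those that rose, and Mettl17 (-0.47) and Nsun3, a tRNA methyltransferase (-0.57), among those that fell. Over all nuclear lists for mitochondria, 163 genes were tested, of which 87 were higher and 21 lower. Against a null of a 1.2-fold change, 10 of them were lower, where 5684 of all 19783 genes tested were lower.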

How the data were processed

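RNA was measured in 3 tumor and 3 spleen libraries of P14 CD8+ T cells. Per the labels' protocols, total RNA was turned into cDNA with a kit for low input, followed by a strand-specific library kit, with 6 libraries to a lane and single reads of 50 bases. The submitters' processing notes list STAR 2.3 and featureCounts, with bcl2fastq 2.20.0.422, and mm10 as the build. Not given in the sources used here are the featureCounts version, its annotation release and its strand setting. The deposited values are whole-number counts per gene that the authors made from the reads, with no normalization. They were joined to symbols and positions of GENCODE M21, and 55154 of the 55335 identifiers had a symbol.

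The deposited counts were fitted in R 4.3.3 with edgeR 4.0.16, using TMM scaling, tissue as the only factor and the quasi-likelihood F-test. Low counts were removed with filterByExpr (minimum count 10, minimum total 15), and Benjamini-Hochberg adjustment ran over all 19783 genes tested, with 0.05 as the threshold. SE is approximate, the log2 fold change over the square root of its F statistic. A second fit used the summed counts of the 13 mitochondrial mRNAs as library size. Shares and ratios were compared by two-sided exact permutation tests over samples (SciPy 1.17.1). A count of 0 allows up to 3 counts, at most 0.0855 CPM, a limit for counting error alone, because PCR copies were not marked by molecular identifiers. On counts simulated for 19647 genes from these libraries, the first fit recovered 87% of 100 genes changed 1.5-fold and 99% of 100 changed 2-fold. It called 7 unchanged genes. The simulation gave all genes the same assumed spread and changed only well-counted genes outside the mitochondrial genome. These rates therefore need not hold for the mitochondrial genes.

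Alternatives were DESeq2 1.42.0, limma-voom (limma 3.58.1), other scalings, no filter, a replicate block, leaving out the nuclear copies, summing the spleen libraries and leaving out each library. The members, lists and tests were chosen with earlier results of these data known. All mitochondrial genes could be named. From each nuclear list, the 2 genes with the smallest p in each direction were named, and from each list of another cell type the gene with the highest CPM in each tissue. Genes named as being at 0 counts were picked after their values were seen.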

Additional observations from a re-analysis of the deposited data

How the results depend on the processing

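The lower level of the 13 mRNAs in tumor kept its direction under the 16 alternatives tried, and each mRNA except mt-Nd3 kept its call under all of them. The number of members lower was 16 to 22 against 19. The number higher was 0 except without tumor replicate 1 or 3, where it was 1 (range 0 to 1). With the nuclear copies counted in, the difference in share was -1.15 percentage points against -0.72. Reads that match both places are counted again there, so this setting is no separate check. Of the nuclear genes for mitochondria, 10 were lower with a null of a 1.2-fold change, against 21. Over all 19783 genes tested, 5684 were lower with that null.

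Replicate numbers do not mark shared mice in the labels, and deviations of equally numbered libraries correlated at -9.0e-04, 0.0156 and 0.002. With the replicate block, 20 members were lower and mt-Rnr1 was called (-0.39, adjusted p = 0.036), and the call of mt-Ta relative to the mRNAs was lost (0.80, adjusted p = 0.063). With no filter, likewise, 20 members were lower and mt-Rnr1 was called.

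Some values changed direction, and the cause was not tested. tRNA over mRNA was 1.12 as a mean of log2 values per gene (exact permutation p = 0.1), against -0.10. mt-Tc was at -0.31 and mt-Ty at -0.01 with limma-voom, and mt-Tc at -0.037 with the replicate block. Relative to all 37 genes, mt-Nd2 was at -0.083, mt-Atp6 at -0.077 and mt-Co3 at -0.032, and relative to the complex I mRNAs they were at -0.089, -0.084 and -0.032.

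Leaving out 1 library at a time gave these lowest and highest log2 values. tRNA over mRNA ran from -0.50 to 0.46, mt-Nd6 over the heavy-strand mRNAs from -0.21 to 0.14, complex I over the other mRNAs from -0.026 to 0.24, complex IV from -0.18 to 0.22 and the ATP synthase from -0.18 to 0.17. Against spleen, mt-Ta ran from -2.23 to 0.032, mt-Tn from -1.78 to 0.41, mt-Tc from -0.90 to 0.59 and mt-Ty from -0.44 to 0.74. Relative to the mRNAs, 5 to 14 members were higher and 0 to 2 lower. On that scale mt-Nd2 ran from -0.10 to 0.21, mt-Co1 from -0.46 to 0.21, mt-Co3 from -0.034 to 0.13, mt-Atp6 from -0.14 to 0.15, mt-Atp8 from -0.25 to 0.077, mt-Nd6 from -0.18 to 0.14, mt-Ts1 from -0.51 to 0.36, mt-Te from -0.54 to 0.28, mt-Ti from -0.13 to 0.28, mt-Ta from -0.61 to 1.6 and mt-Tn from -0.18 to 1.95.

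Few counts limit the tRNA genes: 11 could not be tested, and for 6 of the tested ones the tumor libraries overlapped those of spleen.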

Other observations

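Of 7 regulators of mitochondrial biogenesis tested, 2 were higher in tumor and 3 lower, shares near the 34.8% higher and 35.9% lower of all genes tested. Pprc1, a coactivator of the PGC-1 family, was at 127, 118 and 104 CPM in tumor and 75.8, 74.8 and 78.6 CPM in spleen (log2 fold change 0.64, adjusted p = 2.1e-05 by edgeR). Esrra, a nuclear receptor that works with such coactivators, was at 27.1, 28.4 and 24.0 CPM in tumor and 35.6, 39.0 and 38.3 CPM in spleen (-0.48, adjusted p = 2.7e-04). The subunits of the nuclear respiratory factor GABP split, with Gabpb1 higher (0.37, adjusted p = 1.5e-04) and Gabpb2 lower (-0.60, adjusted p = 1.0e-05).

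Of 13 genes for mitochondrial dynamics and mitophagy tested, 2 were higher and 4 lower in tumor, neither share above that background. Bnip3, a mitophagy receptor, was at 37.5, 42.1 and 50.8 CPM in tumor and 3.80, 3.43 and 3.16 CPM in spleen, a 12.8-fold rise (adjusted p = 5.6e-10). Phb2, an inner membrane prohibitin, rose 2.49-fold (adjusted p = 2.8e-09). Pink1, the kinase that marks damaged mitochondria, was at 69.6, 73.4 and 52.7 CPM in tumor and 137, 143 and 139 CPM in spleen (log2 fold change -1.07, adjusted p = 3.9e-06), and Mief2, a receptor for the fission machinery, fell by 0.74 on the log2 scale. For the dynamics and mitophagy genes named, which were chosen by smallest p, the tumor and spleen libraries did not overlap. Of all genes tested, 39.4% lay below spleen and 35.1% above it in tumor without overlap.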
